A study of Mus musculus with 8 samples.

Results

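Translation initiation and elongation factors were followed in mouse mammary basal cells, the layer that wraps the milk ducts and can contract. The set holds 37 genes of the 54837 in the count table, found by symbol and grouped by the factor complex they belong to. There are 3 scanning factors, 5 subunits of eIF2 and eIF2B, 12 subunits of eIF3, 9 genes of the eIF4 cap-binding group with Pabpc1, 3 genes for subunit joining and eIF5A, and 5 elongation factors. The mice were untreated C57BL/B6. Their cells had been separated by cell cycle phase, G0 being cells that rest and have left the cycle and G1 being cells that grow ahead of copying their DNA. Every run (1 to 4) supplied a library of each phase, so there are 4 libraries per phase. The labels give neither the age of the mice nor the sort markers, and they do not say whether a run was a separate animal, cell preparation or sequencing lane. The p-values below therefore measure the spread between these libraries, which may be partly technical.

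Initiation factors bring the small ribosomal subunit, the initiator transfer RNA and the messenger RNA together and find the start codon. eIF2 carries the initiator transfer RNA and is recharged by eIF2B, eIF3 holds the small subunit ready, and the eIF4 factors recognise the cap and unwind the leader. Elongation factors then deliver each amino acid and move the ribosome by a codon. The messenger RNAs of many elongation factors and of some initiation factors begin with a run of pyrimidines (a 5′ terminal oligopyrimidine tract), a feature through which growth signals are known to control their translation. Translation is known to be low in resting cells, and the factors are known to be controlled largely through phosphorylation and translation, neither of which a count of messenger RNA measures.

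The transcript starts are shown because such a tract, where a gene has one, would begin there. Of the 37 members, 27 had a start site in the RefSeq table (GRCm38.p6), with 33 sites in all. The remaining 10 are Eif2b3, Eif3e, Eif3h, Eif3i, Eif4ebp1, Eif4g2, Pabpc1, Eif6, Eef1d and Eef1g. Each window runs 5′ to 3′ on the strand of the gene, with 15 bases before the annotated start, and capitals mark the unbroken run of C or T that begins at the start. A run of at least 5 such letters, read on the gene's strand only, was present at 3 of the 33 sites of members. These are 1 site each of Eif2s3x, Eif3f and Eef1a1. Of all 32851 RefSeq start sites, 4.44% held such a run. Also shown are Eif2s2, Eif4h and Eef1b2, which have no such run. Like Eif3f, they had a G1 to G0 ratio above 1 in every run.
Eif2s3x, chrX:94212637-94212666, minus strand: ctgccgagcattttcCTTTTCTCTCCgagc
Eif3f, chr7:108934400-108934429, plus strand: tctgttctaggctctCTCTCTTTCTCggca
Eef1a1, chr9:78481710-78481739, minus strand: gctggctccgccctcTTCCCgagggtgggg
Eif2s2, chr2:154892892-154892921, minus strand: cacgtaaggttggctTTactgtacgcctgc
Eif4h, chr5:134639395-134639424, minus strand: gtgcgacttgcgatcaggcagcgcggcgga
Eef1b2, chr1:63176816-63176845, plus strand: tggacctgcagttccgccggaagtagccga
The run covers 11 bases in Eif2s3x and in Eif3f and 5 in Eef1a1. It begins with C in Eif2s3x and Eif3f and with T in Eef1a1, and Eif4h and Eef1b2 have a purine at the listed base. Whether any of these runs acts as a terminal oligopyrimidine tract was not tested. A start listed 1 base away would be read differently, so a missing run says only that these letters are not at the listed position.

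Total counts ranged from 5868728 to 15014104 per library. The G0 library of run 4 stood apart: it held the fewest counts, yet 39094 genes had a count there, where the remaining 7 libraries had 20836 to 26614, and Gm10800 alone took 8.13% of its counts. Gm10800 was also the top gene of the G1 library of run 4, at 1.71%, and of the G0 library of run 3, at 1.19%. Basal markers summed to 17200 to 21500 CPM (counts scaled to library size with TMM factors) in G0 and 23300 to 26700 CPM in G1. Only Acta2, smooth muscle actin, was called higher in G1 when runs were paired. It stood at 8210, 8630, 5860 and 9010 CPM in the G0 libraries of runs 1 to 4 and at 11100, 11800, 10500 and 15400 CPM in G1. Paired log2 fold changes were 0.05 for Krt5, 0.05 for Krt14 and -0.01 for Trp63, and 0.32 for Myh11 and 0.21 for Oxtr. The rise of the sum is thus mostly that of Acta2. Luminal markers summed to 1000 to 2110 CPM in G0 and 1140 to 1880 CPM in G1. Endothelial markers summed to 94.7 to 177 CPM in G0 and 14.7 to 68.4 CPM in G1, and 6 of 6 were called lower in the paired fit. Fibroblast markers summed to 169, 242, 595 and 233 CPM in the G0 libraries of runs 1 to 4 and to 204, 296, 447 and 367 CPM in G1. The fibroblast sum was thus higher in G1 in runs 1, 2 and 4, although 4 of 6 markers were called lower with the runs paired. Dcn, the most abundant of them, went the other way, with a paired log2 fold change of 0.58 ± 0.16 (adjusted p = 0.0973, edgeR). Adipocyte markers summed to 147 to 431 and 29.7 to 205 CPM, with 1 of 2 tested called lower (Lpl). Most of that sum was Fabp4, at 130 to 395 CPM in G0 and 26.1 to 180 CPM in G1. Adipoq was at most 1.33 CPM and Plin1 at most 2.14 CPM, and neither was tested. The sum thus says little about adipocytes, and which cells the Fabp4 and Lpl transcripts came from was not tested. Immune markers summed to 26.6 to 51.1 and 25.7 to 39 CPM, with none of 3 tested called. No marker was at 0 in every library, and the part of these other cells in the results on translation factors was not tested. In a sorted population, fewer cells of a type and less RNA per cell cannot be told apart, and CPM are shares of a library, so a change in the total RNA of a cell does not show in them.

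All 37 factor genes were well measured in both phases, with at least 103 counts in every library (least for Eif2s3x), and all passed the filter on low counts, which left 15192 genes. None was called higher or lower in G1 by edgeR's quasi-likelihood test with the phase alone (Benjamini-Hochberg adjusted p of 1 for every member, lowest unadjusted p 0.23). That fit called 0% of all tested genes higher and 0% lower, and its unadjusted p was under 0.05 for 2.8% of genes and for 0 of 37 members. The other tools run on the phase alone also called no member. Fold changes of the members lay between -0.11 (Eif4g1) and 0.30 (Eef1d) on the log2 scale. Of the 37 members, 34 were above 0, against 49.9% of all tested genes and 56.9% of the 7371 genes that averaged at least 20 CPM, as every member does. The median was 0.13 for the members, 0 for all tested genes and 0.03 for the abundant ones. The median standard error of a single member was 0.23 with the phase alone and 0.11 in the paired fit described below.

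The members' summed share of all counts was 1.18, 1.13, 1.58 and 1.12% in the G0 libraries of runs 1 to 4, and 1.19, 1.26, 1.55 and 1.37% in the G1 libraries. The share was higher in G1 in runs 1, 2 and 4 and lower in run 3, and the groups overlapped, at 1.25 ± 0.222% in G0 and 1.34 ± 0.155% in G1 (SD, n = 4). Within runs 1 to 4, the ratio of G1 to G0 was above 0 on the log2 scale for 27, 32, 23 and 32 of the 37 members, where 50.9, 52.3, 52.1 and 49.4% of all tested genes were. The members' median ratio was 0.07, 0.15, 0.05 and 0.33 in these runs (SD over runs 0.13), against 0.01, 0.02, 0.02 and -0.01 over all tested genes. Over genes averaging at least 20 CPM it was 0, 0.04, 0.04 and 0.1. Run 4, which holds the library that stood apart, thus gave the highest median, and without run 4 the median of the paired fit was 0.08 in place of 0.13. With the phase alone the median was 0.11 without that G0 library, 0.31 without the G0 library of run 3, 0.07 without the G1 library of run 3, and 0.21 and 0.20 without the G1 libraries of runs 1 and 2.

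The 2 libraries of a run can be compared as a pair, which a second model did by adding the run as a block. With the block, 0.481% of all tested genes were called higher in G1 and 0.764% lower, and again 0 of 37 members were called. The lowest adjusted p of a member was 0.217, for Eef1d (edgeR's quasi-likelihood test with Benjamini-Hochberg adjustment). At an unadjusted p under 0.05, 7 members were higher, namely Eif2s2, Eif3e, Eif3f, Eif3i, Eif3m, Eef1b2 and Eef1d, and 0 were lower. The same threshold was passed upwards by 6.58% and downwards by 5.69% of all tested genes, and upwards by 9.63% of those averaging at least 20 CPM. With runs 1, 2, 3 and 4 left out in turn, the count of 7 was 6, 4, 7 and 2. All tested genes under that p in either direction numbered 1864 with every run kept, and 1875, 1801, 1735 and 1201 in these 4 fits. The fall without run 4 was thus seen over all genes too. A ratio above 0 in all 4 runs was seen in 12 of 37 members, against 11.3% of all tested genes and 15% of the abundant ones, and a ratio below 0 in all 4 runs in none, against 9.46% of all tested genes. The comparison with genes of at least 20 CPM was added after the values were seen.

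**Figure D1:**
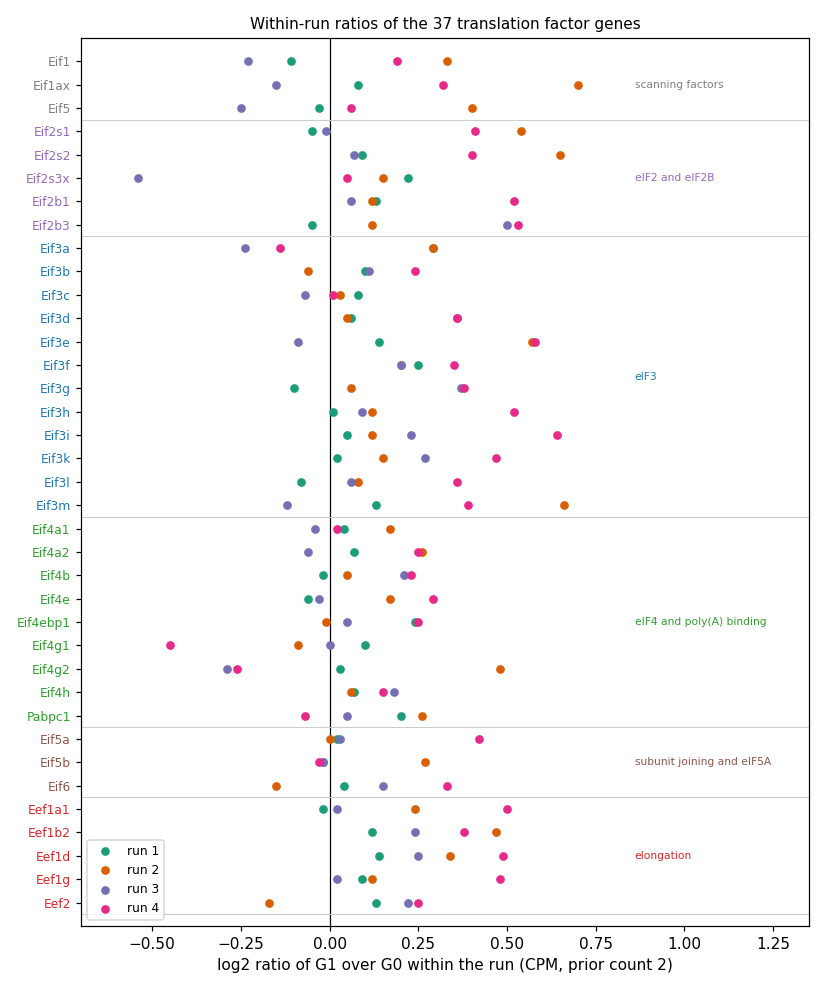
Log2 ratio of G1 over G0 within each run (horizontal axis, CPM with a prior count of 2) for each of the 37 members, coloured by run and grouped by complex. Points of run 4 lie mostly to the right, with a median of 0.33, and those of run 3 lie on both sides of 0, with 23 of 37 above it.

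The intervals show what size of difference these libraries leave room for. With the phase alone, the 95% interval of every member covered 0, and 15 of 37 intervals lay within a 1.5-fold change either way. The widest belonged to Eif4ebp1, from -1.88 to 2.04. With the block, all 37 intervals lay within 1.5-fold, between -0.38 and 0.57, and 30 covered 0. The intervals of the other 7 lay above 0 before any adjustment for the number of genes. The biological coefficient of variation over all genes was 34.9% with the phase alone and 16.9% with the block.

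**Figure D2:**
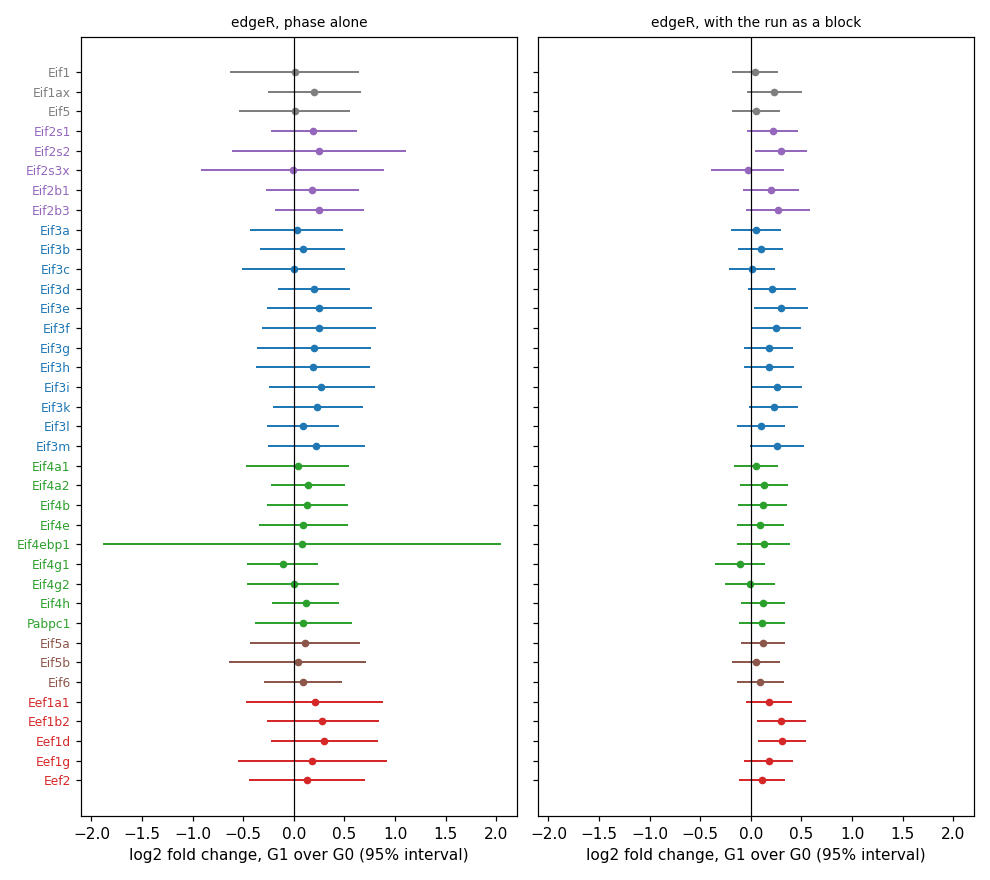
Log2 fold change of G1 over G0 with its 95% interval for each member, with the phase alone (left) and with the run as a block (right), coloured by complex as in the plot of within-run ratios. All 37 intervals on the left and 30 on the right cross 0.

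The 3 scanning factors, which let the small subunit search the leader and recognise the start codon, showed no called difference and a median log2 fold change of 0.01. Eif1 (chr11:100319885-100322096 on GRCm38), which keeps the scanning complex open until the start codon pairs, stood at 1170, 1177, 2479 and 1307 CPM in the G0 libraries of runs 1 to 4 and at 1081, 1478, 2111 and 1491 CPM in the G1 libraries. Both run 3 libraries were high, and the groups overlapped. Its log2 fold change was 0.01 ± 0.29 (SE) with the phase alone and 0.04 ± 0.11 with the block. Eif1ax (chrX:159372178-159389928), which helps eIF1 place the ribosome, stood at 138, 81.7, 140 and 91.7 CPM in G0 and at 145, 133, 126 and 114 CPM in G1. The G0 libraries of runs 2 and 4 were low and the others overlapped, with a fold change of 0.20 ± 0.20, or 0.23 ± 0.13 with the block (adjusted p = 0.486). Eif5, the protein that makes eIF2 release its phosphate once the start codon is found, had a mean of 501 ± 173 CPM (SD, n = 4) in G0 and of 504 ± 95.2 CPM in G1. By run the median ratio of these 3 genes was -0.03, 0.40, -0.23 and 0.19, so it was below 0 in runs 1 and 3 and above 0 in runs 2 and 4.

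The eIF2 and eIF2B subunits, which load the initiator transfer RNA and recharge eIF2 with GTP, were above 0 in 4 of 5 genes, with a median of 0.19 and no call. Eif2s2 (chr2:154871410-154892935), the β subunit of eIF2, stood at 106, 94.5, 277 and 118 CPM in the G0 libraries of runs 1 to 4 and at 113, 148, 290 and 156 CPM in G1. It was higher in G1 in each run, most in run 2 (0.65) and run 4 (0.40), but both run 3 libraries were more than any other, so the groups overlapped. The fold change was 0.25 ± 0.38 with the phase alone and 0.30 ± 0.12 with the block (adjusted p = 0.272, edgeR). Eif2b1 (chr5:124570213-124579131), the α subunit of the exchange factor eIF2B, to which phosphorylated eIF2 binds, stood at 56.0, 46.2, 62.2 and 34.0 CPM in G0 and at 61.3, 50.2, 64.9 and 48.9 CPM in G1. It too was higher in G1 in each run, with overlapping groups and a ratio of 0.52 in run 4 against 0.06 to 0.13 in the others. Eif2s3x (chrX:94188707-94212862), the γ subunit that binds GTP and the initiator transfer RNA, was the least abundant member, at 9.34, 28.2, 21.4 and 28.2 CPM in G0 and 10.9, 31.4, 14.7 and 29.3 CPM in G1. It was low in both libraries of run 1 and was the only member of this complex with a fold change below 0, -0.01 ± 0.41, or -0.03 ± 0.17 with the block. A processed pseudogene, Gm2223, identical to Eif2s3x over the aligned bases, held counts worth 8.81% of those of Eif2s3x, and a copy of Eif2s2 held 2.67% of its counts, so both values are uncertain by reads that may be split. Eif2s1, the α subunit that stress kinases phosphorylate, had a mean of 179 ± 43.2 CPM (SD, n = 4) in G0 and of 205 ± 16.9 CPM in G1, and Eif2b3, the γ subunit of eIF2B, of 29.2 ± 6.88 and 34.7 ± 2.54 CPM.

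Of the 12 eIF3 subunits, the scaffold that keeps the small subunit free and recruits the messenger RNA, none was called and none had a fold change below 0 with the phase alone, with a median of 0.20. By run the median was 0.07, 0.12, 0.10 and 0.37, with 10, 11, 8 and 11 subunits above 0. The whole complex took 0.208, 0.193, 0.235 and 0.166% of counts in the G0 libraries of runs 1 to 4 and 0.218, 0.208, 0.243 and 0.211% in the G1 libraries. The share was higher in G1 in all 4 runs, and the groups overlapped. Eif3e (chr15:43250058-43282719), a subunit of the eIF3 octamer, had the largest paired fold change, 0.30 ± 0.12 (adjusted p = 0.305, edgeR). It stood at 124, 94.3, 199 and 111 CPM in G0 and at 137, 140, 186 and 166 CPM in G1, and run 3 was the only run in which G1 was lower. Eif3c (chr7:126546455-126566411), a core subunit, had the smallest, 0.01 ± 0.11, and stood at 193, 195, 323 and 190 CPM in G0 and at 203, 200, 308 and 191 CPM in G1. In each phase its run 3 library was above the other 3, which lay close together.

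Within eIF3, 5 subunits had a ratio above 0 in all 4 runs. Eif3f (chr7:108934417-108942951), a subunit with an MPN domain and the pyrimidine run shown above, stood at 71.1, 67.4, 127 and 83.4 CPM in G0 and at 84.9, 77.5, 146 and 106 CPM in G1. Its ratios, 0.25, 0.20, 0.20 and 0.35, were the most even of the 5, and its paired fold change was 0.25 ± 0.11 (adjusted p = 0.371). Eif3h (chr15:51786558-51865523), the other MPN-domain subunit, stood at 85.2, 91.0, 154 and 98.1 CPM in G0 and at 85.7, 98.6, 163 and 141 CPM in G1. The difference was 0.52 in run 4 and at most 0.12 in the others. Eif3i (chr4:129591960-129600648), a WD-repeat subunit, stood at 119, 97.9, 167 and 110 CPM in G0 and at 124, 106, 196 and 172 CPM in G1. It too differed most in run 4 (0.64), with a paired fold change of 0.26 ± 0.12 (adjusted p = 0.379). Eif3k (chr7:28971372-28981864), a small subunit, stood at 105, 96.1, 137 and 91.7 CPM in G0 and at 107, 107, 165 and 127 CPM in G1. Its ratios of 0.02 and 0.15 in runs 1 and 2 were below those of 0.27 and 0.47 in runs 3 and 4. Eif3d (chr15:77958998-77970813), the subunit known to contact the cap of some messenger RNAs, stood at 190, 183, 143 and 146 CPM in G0 and at 199, 189, 184 and 187 CPM in G1. The G0 libraries of runs 3 and 4 were low while the G1 libraries were even, and the groups overlapped. Exons of Eif3d share 2151 of 4968 bases with the antisense gene Gm17638, and since it is not known whether counting used the strand, reads of the pair may not be separated. Of the other 5 subunits, Eif3m had a paired fold change of 0.26 ± 0.13 (adjusted p = 0.404), and Eif3a, Eif3b, Eif3g and Eif3l lay between 0.05 and 0.18.

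In the eIF4 group, which recognises the cap and the poly(A) tail and unwinds the leader, 7 of 9 genes were above 0, with a median of 0.09 and no call. Eif4h (chr5:134619721-134639490), which stimulates the helicase eIF4A, had the narrowest span between runs of the 37, 1.04-fold, and stood at 487, 500, 487 and 485 CPM in the G0 libraries of runs 1 to 4 and at 512, 521, 553 and 539 CPM in G1. Every G1 library was above every G0 library, which held for 1 of 37 members and for 0.829% of all tested genes, while the reverse held for 0 members and 1.17% of genes. The difference was small, 0.12 ± 0.15 with the phase alone and 0.12 ± 0.10 with the block (adjusted p = 0.711). The SD of Eif4h was 6.85 CPM in G0 and 18.3 CPM in G1, and edgeR takes the spread of a gene in part from other genes of like abundance.

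The helicase itself has a pair of paralogs. Eif4a1 (chr11:69666936-69672423), the form used in growing cells, stood at 598, 613, 1023 and 736 CPM in G0 and at 616, 692, 993 and 745 CPM in G1. Eif4a2 (chr16:23107444-23114136) stood at 136, 163, 165 and 161 CPM in G0 and at 143, 195, 158 and 192 CPM in G1. Neither was called. Both libraries of run 3 were the highest for Eif4a1, and both of run 1 were the lowest for Eif4a2. Per kb of principal transcript, Eif4a2 was 0.182, 0.214, 0.129 and 0.176 of Eif4a1 in the G0 libraries and 0.186, 0.227, 0.128 and 0.207 in the G1 libraries. Eif4a1 was thus the major form in all 8 libraries, and the ratio moved more between runs than between the phases of a run. Reads of Eif4a1 may be split with the processed pseudogene Eif4a-ps4, which held counts worth 6.31% of those of the gene.

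The scaffold Eif4g1 (chr16:20668313-20692884), which bridges cap, helicase and eIF3, had the lowest fold change of the 37, -0.11 ± 0.16, or -0.11 ± 0.11 with the block (adjusted p = 0.777). It stood at 233, 227, 234 and 282 CPM in G0 and at 250, 213, 234 and 207 CPM in G1, and the negative value came with the high G0 library of run 4 (ratio -0.45). Eif4g2 (chr7:111067750-111083030), a related scaffold that lacks the part that binds eIF4E, stood at 1079, 725, 871 and 988 CPM in G0 and at 1105, 1010, 712 and 826 CPM in G1. Its ratio was 0.48 in run 2 and -0.29 and -0.26 in runs 3 and 4, so the runs disagreed in sign.

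Eif4e (chr3:138526179-138559696), the cap-binding protein, stood at 248, 285, 369 and 260 CPM in G0 and at 238, 321, 362 and 318 CPM in G1. Eif4ebp1 (chr8:27260329-27276674), the repressor that holds eIF4E until the kinase mTORC1 phosphorylates it, stood at 22.1, 42.0, 193 and 42.9 CPM in G0 and at 26.2, 41.9, 200 and 50.9 CPM in G1. The libraries of run 3 were the highest in both phases, and within a run the phases were close, with ratios from -0.01 to 0.25. Per kb, Eif4ebp1 was 0.223, 0.368, 1.31 and 0.412 of Eif4e in G0 and 0.275, 0.325, 1.38 and 0.400 in G1. The repressor's transcript was thus below that of its target in runs 1, 2 and 4 and above it in run 3, in both phases. Of the remaining genes, Eif4b, a cofactor of the helicase, had a mean of 124 ± 13.2 CPM (SD, n = 4) in G0 and of 135 ± 25.2 CPM in G1, and Pabpc1, the poly(A)-binding protein, of 337 ± 81.2 and 360 ± 61.9 CPM.

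**Figure D3:**
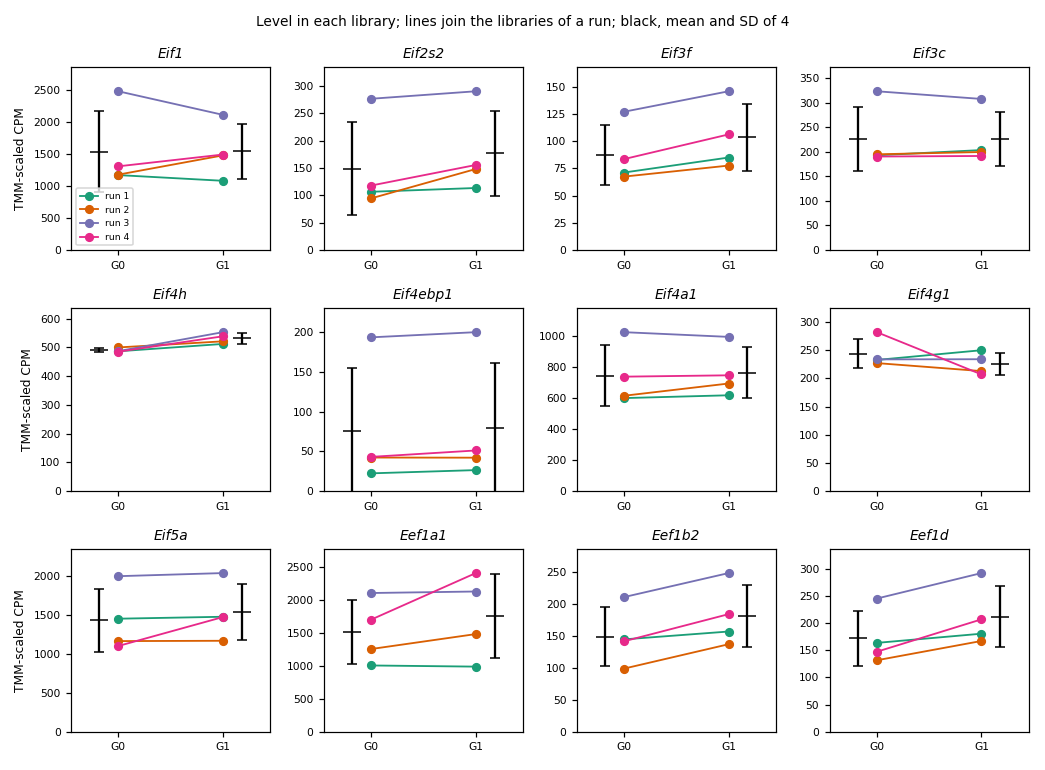
TMM-scaled CPM (vertical axis from 0) of 12 members in each library, with a line joining the G0 and G1 libraries of a run, and the mean and SD of the 4 libraries of a phase in black (the SD bars of Eif4ebp1 are cut off at 0). Lines of run 3 run above the rest in most panels, up to 200 CPM for Eif4ebp1, while the 4 lines of Eif4h lie between 485 and 553 CPM.

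The 3 genes for subunit joining and eIF5A had a median of 0.09 and no call. Eif5a (chr11:69916714-69921958), which helps ribosomes through difficult peptide bonds and carries the modified lysine hypusine, stood at 1455, 1167, 2002 and 1104 CPM in G0 and at 1480, 1171, 2042 and 1476 CPM in G1. The ratio was 0.02, 0.00 and 0.03 in runs 1 to 3 and 0.42 in run 4, so the fold change of 0.12 ± 0.10 with the block came almost wholly with run 4. Eif5b (chr1:37998010-38055579), the GTPase that joins the large subunit, stood at 143, 106, 234 and 108 CPM in G0 and at 142, 128, 232 and 106 CPM in G1. Its ratio was 0.27 in run 2 and between -0.03 and -0.02 in the other runs. Exons of Eif5b share 1643 of 9753 bases with Rev1 on the opposite strand. Eif6, which keeps the large subunit apart until it is needed, had a mean of 334 ± 44.0 CPM (SD, n = 4) in G0 and of 355 ± 42.8 CPM in G1.

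All 5 elongation factors had a fold change above 0, with no call. Their median was 0.21 with the phase alone, beside 0.20 for eIF3 and 0.19 for eIF2 and eIF2B, and 0.18 with the block, beside 0.19 and 0.22. By run it was 0.12, 0.24, 0.22 and 0.48. They took 0.205, 0.247, 0.361 and 0.279% of counts in the G0 libraries of runs 1 to 4 and 0.211, 0.265, 0.380 and 0.388% in the G1 libraries, higher in G1 in each run but with overlapping groups. Eef1d (chr15:75894205-75909556), the δ subunit of the complex that recharges eEF1A with GTP, had the largest fold change of all 37 members, 0.31 ± 0.11 with the block (adjusted p = 0.217, edgeR) and 0.30 ± 0.24 with the phase alone. It stood at 164, 132, 245 and 147 CPM in G0 and at 181, 167, 292 and 207 CPM in G1, higher in G1 in each run. Exons of Eef1d share 277 of 6488 bases with Naprt on the same strand. Naprt held 2375 counts over all libraries and Eef1d 16552, and reads in the shared bases may not be separated. Eef1b2 (chr1:63176825-63180486), the β subunit of that complex, stood at 145, 99.0, 211 and 142 CPM in G0 and at 157, 137, 248 and 184 CPM in G1. It too was higher in each run, by 0.30 ± 0.11 with the block (adjusted p = 0.235). Eef1g (chr19:8967041-8978479), the γ subunit, stood at 108, 140, 267 and 187 CPM in G0 and at 115, 152, 270 and 261 CPM in G1. Its ratio was at most 0.12 in runs 1 to 3 and 0.48 in run 4, and copies held counts worth 4.87% of its own. These 3 subunits of the exchange complex were therefore higher in G1 within every run, and the groups of each overlapped.

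Eef1a1 (chr9:78478449-78489151), which delivers aminoacyl transfer RNA, stood at 1008, 1258, 2109 and 1705 CPM in G0 and at 990, 1485, 2132 and 2412 CPM in G1. Its ratio was -0.02 and 0.02 in runs 1 and 3 and 0.24 and 0.50 in runs 2 and 4. Eef2 (chr10:81176631-81182498), the GTPase that moves the ribosome along, had the smallest paired fold change of the group, 0.11 ± 0.11. It stood at 552, 697, 1000 and 744 CPM in G0 and at 603, 620, 1166 and 887 CPM in G1, lower in G1 in run 2 alone.

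The levels of the members could be set in order per kb of principal transcript for 36 of the 37, Eif4g2 having none in the annotation. Highest were Eif1, at 1160 ± 479 CPM per kb in G0 and 1165 ± 322 in G1, Eif5a, at 996 ± 285 and 1073 ± 253, and Eef1a1, at 847 ± 272 and 978 ± 357 (SD, n = 4). The SDs of these 3 overlap, but they hold the differences between runs, and all genes were measured in the same libraries. Within a library, Eif1 was above Eef1a1 in all but the G1 library of run 4 (1128 against 1345). Next came Eif4a1, at 419 ± 111 and 429 ± 91.8 CPM per kb, and Eef2, at 242 ± 60.5 and 265 ± 85.9, with Eif6, Eif3g and Eif4h within the spread of Eef2. Among the eIF3 subunits, levels per kb ran from 34.7 ± 10.9 for Eif3f to 202 ± 50.4 for Eif3g in G0. At the low end stood Eif2s3x, at 5.97 ± 2.44 and 5.91 ± 2.81 CPM per kb. Above it were Eif5b, at 19.0 ± 7.72 and 19.5 ± 7.10, and Eif2b3, at 18.8 ± 4.43 and 22.3 ± 1.64. Eif5b was above Eif2b3 in both libraries of run 3 and below it in all the others. Subunits of 1 complex were thus far apart in CPM per kb in both phases. These values rest on the annotated length of 1 transcript per gene, and which transcripts the cells made was not tested. Eif2s3x matches its pseudogene Gm2223 over 1350 of 3647 bases. How reads that match both were counted is not known, so its level may be too low.

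**Figure D4:**
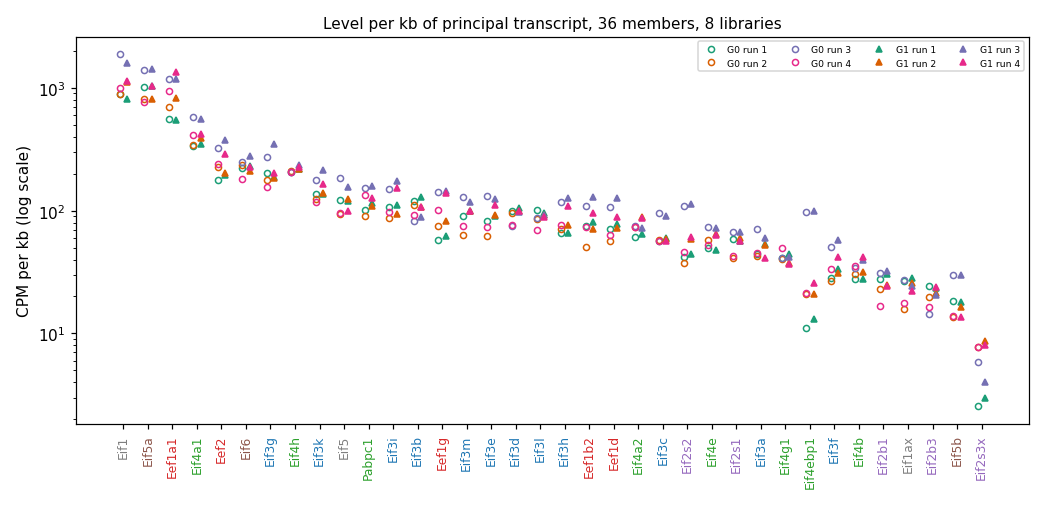
Level of 36 members in CPM per kb of principal transcript (log scale) in each of 8 libraries, G0 as open circles and G1 as triangles, coloured by run and ordered by the mean. The order runs from Eif1, at 1160 CPM per kb in G0 and 1165 in G1, to Eif2s3x, at 5.97 in G0 and 5.91 in G1.

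More members differed between runs than between phases. The run term of the blocked fit passed an adjusted p of 0.05 for 26 of 37 members, against 35.6% of all tested genes and 45.3% of those averaging at least 20 CPM (edgeR's quasi-likelihood test with Benjamini-Hochberg adjustment, a comparison added after the values were seen). It was passed by 10 of 12 eIF3 subunits, 5 of 5 elongation factors, 3 of 5 eIF2 and eIF2B subunits, 2 of 3 scanning factors, 4 of 9 genes of the eIF4 group and 2 of 3 of the joining group. From the highest to the lowest run, the median span was 0.72 on the log2 scale for the members, 0.73 for all tested genes and 0.57 for the abundant ones. Run 3 was the highest run for 27 of 37 members, where it was so for 32% of all tested genes and 35.7% of the abundant ones. Eif4ebp1 had the widest span, 8.11-fold (adjusted p = 3.5e-12), followed by Eif2s3x, 2.91-fold and low in run 1, Eif2s2, 2.58-fold, and Eef1g, 2.41-fold. Eif4h, at 1.04-fold, and Eif4g1, at 1.10-fold, had the narrowest. What a run differs in is not given in the labels.

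Transcript length moved with the fold change. Across the 36 members with a principal transcript, log2 fold change and length were correlated at -0.51 (Pearson) and -0.45 (Spearman), and across 12703 tested genes at -0.25 and -0.36. These are correlations across genes of the same 8 libraries, and genes are not independent replicates. Over all tested genes the median fold change went from 0.22 for transcripts under 1 kb and 0.10 for those of 1 to 2 kb to -0.14 for those over 6 kb. The members' median was 0.19 for the 16 of 1 to 2 kb, such as Eif3i and Eif3e, 0.16 for the 8 of 2 to 3 kb and 0.03 for the 5 of 4 to 6 kb, such as Eif4g1 and Eif3a. In run 4 the median of all genes ran from 0.42 under 1 kb to -0.49 over 6 kb, and in run 1 from 0.07 to 0.02. Offsets for length and GC content were also added to the blocked fit, taken from the longest annotated transcript of a gene and not the principal one. The members' median was then 0.12, and 35 of 37 were above 0, against 52.7% of all tested genes. An unadjusted p under 0.05 was reached by 9 members, all higher, and in either direction by 2174 of 15183 tested genes. Without the offsets these were 7 members and 1864 of 15192 genes, so the count rose over all genes too. The lowest adjusted p of a member with the offsets was 0.0761, for Eef1d (edgeR).

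**Figure D5:**
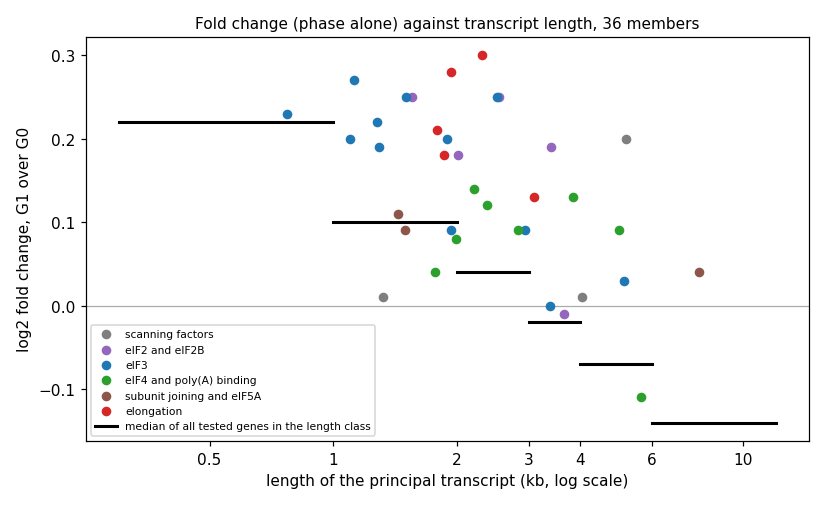
Log2 fold change of G1 over G0 with the phase alone against the length of the principal transcript (kb, log scale) for 36 members, coloured by complex, with the median of all tested genes in each length class as a black line. Both are lower for longer transcripts, the line going from 0.22 to -0.14, and members of 1 to 2 kb have a median of 0.19 where the line stands at 0.10.

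Other genes of the pathway were read from the same fits. Of 29 tested other initiation factors and their partners, 22 had a fold change above 0, with a median of 0.05 and no call in either fit. Paip2, which pulls Pabpc1 off the poly(A) tail, had the smallest p of them, with a paired fold change of 0.32 ± 0.12 (adjusted p = 0.225), and Eif4e3, a relative of eIF4E, one of 0.36 ± 0.18 (adjusted p = 0.439). Of 13 other elongation, termination and recycling factors, 11 were above 0, with a median of 0.08 and no call. Eef1e1, a scaffold protein of the aminoacyl-tRNA synthetase complex, had a paired fold change of 0.25 ± 0.13 (adjusted p = 0.438), and Eef2k, the kinase that inhibits eEF2, of 0.20 ± 0.14 (adjusted p = 0.618). Of 9 mitochondrial translation factors 8 were above 0, with a median of 0.19 and no call. Mtif2 and Mtif3, the initiation factors of mitochondria, were higher in G1 in each run, at 0.53 ± 0.18 (adjusted p = 0.193) and 0.38 ± 0.14 (adjusted p = 0.225) with the block.

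The signalling genes that act on these factors lay on both sides of 0. Of 12 genes of the eIF2 kinases and the integrated stress response, 5 were above 0, with a median of -0.05 and no call. Ddit3, a transcription factor induced by that response, had ratios of 0.38, 0.31, 0.39 and 0.34 and a paired fold change of 0.36 ± 0.15 (adjusted p = 0.309), and Sesn2, a stress-induced inhibitor of mTORC1, one of -0.29 ± 0.15 (adjusted p = 0.427). Of 13 genes of mTORC1 and the MNK and S6 kinases, 6 were above 0, with a median of -0.02. Ddit4, a stress-induced inhibitor of mTORC1, stood at 34.5, 10.5, 30.9 and 9.83 CPM in the G0 libraries of runs 1 to 4 and at 9.35, 5.21, 20.2 and 7.47 CPM in the G1 libraries. It was lower in G1 in each run, and the groups overlapped. With the block Ddit4 was the only gene of these 5 lists that was called, at -1.01 ± 0.22 (adjusted p = 0.0142, edgeR), and with the phase alone it was not, at -1.03 ± 0.51 (adjusted p = 1). Mlst8, a subunit of mTORC1, had a paired fold change of 0.36 ± 0.18 (adjusted p = 0.428).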

How the data were processed

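Polyadenylated RNA of sorted G0 and G1 mammary basal cells was made into stranded TruSeq libraries and read as paired ends on a HiSeq, per the labels' protocols. Trimmomatic 0.35, STAR 2.5.2a and mm10 are named in the submitters' processing notes. How reads were counted (program, strand, gene models) is not given in the sources used here. What the authors deposited are raw counts for each Ensembl gene, not normalized, in 1 table with 1 column per library. Symbols, positions and principal transcripts came from GENCODE M21 (GRCm38), and start windows from RefSeq.

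Counts were scaled by TMM and tested with edgeR 4.0.16 (R 4.3.3, quasi-likelihood, robust, two-sided) on the 15192 genes kept by filterByExpr, with Benjamini-Hochberg adjustment over all of them at 0.05. The model held the phase alone, and a second one added the run. Same-run libraries deviated together (correlations 0.437 to 0.668, at most 0.0971 between different runs), so the run numbers in the titles were taken as pairs. SE was obtained by dividing the size of the log2 fold change by the root of F, and within-run ratios used a prior count of 2. The 12 pairs of libraries within a phase had a chi-square of 24.5 to 116.3 for each degree of freedom, above sampling noise, so all counted as separate samples. Near-identical copies are genes that blastn 2.17.0 aligned over at least 300 bases at 97% identity or more, found for 10 of the 37 members. Exons of 6 members overlap those of a gene on the opposite strand, namely Eif3d, Eif3m, Eif4a2, Eif5b, Eif6 and Eef1b2.

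The members and lists were chosen with earlier results of these data known. All members may be named, with values in every library for those with 1 sign in all 4 runs, the largest and smallest of each complex in the paired fit, and the pairs Eif4a1 and Eif4a2, Eif4g1 and Eif4g2, and Eif4e and Eif4ebp1. Of the other lists, called genes and the 2 with the smallest paired p are named. Alternatives were RLE size factors, 2 other filters, DESeq2 1.42.0, limma-voom (limma 3.58.1), the replicate block, length and GC offsets, and each library or run left out. The test was tried on simulated counts with known changes.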

Additional observations from a re-analysis of the deposited data

Results flagged for a closer look

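Values of 4 libraries of a phase were searched for 1 that lay far from the other 3, for every member and for the summed shares. Of 88 such groups, 14 held one. Chance gives about 1 in 20 for a single group. The 88 groups share the same 8 libraries, and the shares are sums of the same members. They are therefore not independent, and the count cannot be judged against that rate. In G0, the run 3 library was far above the others for Eif1 (2480 CPM against 1170 to 1310), Eif2s2 (277 against 94.5 to 118), Eif3a (363 against 221 to 234), Eif3c (323 against 190 to 195) and Eif4ebp1 (193 against 22.1 to 42.9). The same library held 1.58% of its counts on all members, against 1.12 to 1.18%, and 0.318% on the scanning factors, against 0.170 to 0.187%. In G1, the run 3 library was far above the others for Eif3c (308 CPM against 191 to 203), Eif3g (388 against 204 to 225), Eif3m (151 against 127 to 128) and Eif4ebp1 (200 against 26.2 to 50.9). Outside run 3, Eif4a2 was low in the G0 library of run 1 (136 CPM against 161 to 165), Eif4g1 was high in that of run 4 (282 against 227 to 234), and Eif4h was high in that of run 2 (500 against 485 to 487). Eif3c and Eif4ebp1 were thus set apart in both phases, each time by run 3. What sets run 3 apart was not tested.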

How the results depend on the processing

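No member was called higher or lower under any alternative, and their median stayed between 0.11 and 0.17 in all settings that kept the 8 libraries. With 1 library or run left out it lay between 0.07 and 0.31, highest without the G0 library of run 3. Over all genes the calls depended on the setting, and the cause was not tested. Without the replicate block, 0 genes were called higher and 0 lower, but 14 and 73 with no low-count filter (which also moved the median of all genes to -0.82) and 10 and 24 by DESeq2. With the replicate block they were 73 and 116, with DESeq2 97 and 136, with limma-voom 77 and 134, with RLE size factors 74 and 123, and with length and GC offsets 127 and 146. With libraries or runs left out, 0 to 99 were called higher and 0 to 175 lower. Of the recomputed fold changes of single members, 61 changed sign and 753 kept their direction and call. Eif3c was at -0.002 with RLE size factors, -0.019 with at least 10 counts in every library and -0.003 by DESeq2. That filter also put Eif1 at -0.016 and Eif5 at -0.013. With no filter Eif2s3x was at 0.034 and Eif4g2 at 0.045. With the block, Eif4g2 was at 0.00026 by limma-voom, and with offsets it was at 0.092, Eif1 at -0.054 and Eif4g1 at 0.018. With libraries or runs left out, fold changes of both signs were found for Eif1 (-0.179 to 0.342), Eif5 (-0.114 to 0.272), Eif2s2 (-0.097 to 0.738), Eif2s3x (-0.260 to 0.215), Eif3a (-0.041 to 0.237), Eif3b (-0.001 to 0.195), Eif3c (-0.181 to 0.230), Eif3g (-0.067 to 0.382), Eif4a1 (-0.114 to 0.234), Eif4ebp1 (-0.928 to 1.167), Eif4g2 (-0.167 to 0.103), Pabpc1 (-0.022 to 0.238), Eif5a (-0.054 to 0.315), Eif5b (-0.238 to 0.353) and Eef2 (-0.085 to 0.305). For 12 of these 15 genes the lowest value was that without the G1 library of run 3. Depth was at least 103 counts for every member in every library.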
